A study of Mus musculus with 3 samples.

Results

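The 9 transcripts described here, *Ttr*, *Gc*, *Slc38a5*, *Slc7a2*, *Tmem27*, *Sphkap*, *Pappa2*, *Cryba2* and *Higd1a*, were grouped as genes of glucagon-producing alpha cells, most of which encode secreted proteins or transporters. They were chosen by name, and all 9 had a row in each of the 3 count tables, which listed 16277 genes for the WT library, 15319 for the mutant library taken at 1 week and 15959 for the mutant library taken at 5 weeks. Cells of dissociated islets of C57/Bl6 mice were sorted as live cells, captured on the 10X Genomics Chromium system and counted by unique molecular identifiers (UMIs), 1 per captured RNA 3′ end. The WT library came from 1 mouse and each mutant library from 2 mice combined, and all mice were described as male. In the mutant mice floxed *Taf4*, a subunit of the general transcription factor TFIID, was inactivated in adult animals with an *Ins1*::Cre-ERT2 driver and tamoxifen, so the deletion was directed at insulin-producing beta cells and not at alpha cells. The mutant libraries were taken 1 week and 5 weeks after inactivation, and the study describes its control animals as *Taf4*+/+ animals that also received tamoxifen, while the label of the WT library says only wild type.

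Each cell was put in a class by its hormone UMIs. In the WT and 5-week libraries an alpha cell had at least 15% of its UMIs from *Gcg*, which encodes glucagon, and under 10% from *Ins2*. A beta cell had at least 20% from *Ins2* and under 3% from *Gcg*, and a delta cell had at least 5% from *Sst*, which encodes somatostatin. In the 1-week library the lower limits were 8%, 5% and 1.5%, and only the 880 of 2295 cells with at least 5000 UMIs were used. These rules gave 2772 alpha, 8271 beta and 621 delta cells of 12000 in WT, 172, 562 and 38 at 1 week, and 3011, 5685 and 1443 of 11229 at 5 weeks. A cell that met the limits of 2 classes was counted in both. At 5 weeks 73 cells were alpha and delta and 128 were beta and delta. WT had 0 and 2 such cells, and the 1-week library 0 and 1. *Gcg*, *Ins2* and *Sst* define the classes and their own differences between classes are therefore no result. Markers that no class limit used were checked in the same cells. *Irx1*, an alpha cell transcription factor gene, was 69.5-fold higher in alpha than in beta cells of WT, 433-fold higher at 1 week, from only 4 beta cell UMIs, and 141-fold higher at 5 weeks. *Irx2*, its paralog, was 44.0-fold, 117-fold and 73.3-fold higher.

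Depth differed between the libraries. The median alpha cell had 763 UMIs in WT, 21635.5 at 1 week and 1853 at 5 weeks. In 2 respects the libraries stood apart. The WT library held 17357 *Xist* UMIs, and none of 4 Y-linked genes was listed in it, whereas the mutant libraries held 17 and 11 *Xist* UMIs and 1488 and 1349 UMIs of the Y-linked *Ddx3y*, so the WT library went against its label of male. *Taf4* had 102, 196 and 160 UMIs in WT, at 1 week and at 5 weeks, or 5.24, 8.47 and 4.06 per 1e6 UMIs of the library. Since counts lie at the 3′ end and the deleted exons are not given in the sources used here, this does not check the deletion. The libraries shared 2, 33 and 5 cell barcodes. With 1 library per condition, genotype, sex, animal, depth and library cannot be told apart, and no test between conditions was made. Levels below are CPM, the UMIs of a gene summed over the cells of a class and scaled to counts per 1e6 UMIs of that class. Parentheses hold 95% exact intervals that cover counting error only: Poisson for levels, conditional for log2 ratios and Clopper-Pearson for shares of cells. In summed classes, fewer cells that express a gene and less RNA per cell cannot be told apart.

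Alpha cells release glucagon when blood glucose is low, and amino acids are a strong stimulus both for glucagon release and for alpha cell growth. Amino acid carriers at the alpha cell membrane are therefore a known part of this biology. *Slc38a5* encodes SNAT5, a carrier of glutamine and other neutral amino acids, and *Slc7a2* encodes CAT2, a carrier of arginine and lysine. *Tmem27* (collectrin, now *Cltrn*) encodes a membrane glycoprotein first studied in kidney and beta cells. Of the secreted proteins, *Ttr* encodes transthyretin, which carries thyroid hormone and retinol-binding protein, *Gc* encodes the vitamin D-binding protein, and *Pappa2* encodes a protease that cleaves insulin-like growth factor binding proteins. *Sphkap* encodes an anchor for protein kinase A, *Cryba2* a beta-crystallin best known from the eye lens, and *Higd1a* a mitochondrial inner membrane protein induced by low oxygen. These last 3 are neither secreted proteins nor transporters.

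In the RefSeq annotation of GRCm38.p6, which is mm10, the build the counts were aligned to, *Gc* lies on chromosome 5 from 89417511 to 89457898 and *Higd1a* on chromosome 9 from 121848557 to 121857796. *Slc38a5* lies on chromosome X from 8271381 to 8280179 and *Tmem27* on the same chromosome from 164090187 to 164118859. Chromosome 1 carries *Cryba2* from 74889934 to 74898842, *Sphkap* from 83255442 to 83408411 and *Pappa2* from 158711727 to 158960451. *Slc7a2* lies on chromosome 8 from 40862341 to 40922070. Promoters of 7 of the 9 genes were matched in RefSeq. The 100 bases before 1 annotated transcription start are shown for the pair of genes with a match to a given motif in these bases, *Slc38a5* and *Tmem27*, and for *Cryba2* and *Pappa2*, the genes with the lowest 1-week levels against WT among these 7. Capitals mark the motif. The starts used for *Pappa2*, *Cryba2* and *Sphkap* lie inside the outer edge of the annotated gene. For *Tmem27* 2 starts were listed and 1 was used.
Slc38a5 (chrX:8271281-8271380, plus strand): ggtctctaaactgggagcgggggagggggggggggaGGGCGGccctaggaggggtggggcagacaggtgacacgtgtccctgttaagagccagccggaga
Tmem27 (chrX:164090087-164090186, plus strand): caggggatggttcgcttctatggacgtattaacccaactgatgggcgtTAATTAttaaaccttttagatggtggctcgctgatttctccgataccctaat
Cryba2 (chr1:74893144-74893243, minus strand): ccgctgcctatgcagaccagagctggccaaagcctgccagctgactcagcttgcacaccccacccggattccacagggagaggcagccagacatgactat
Pappa2 (chr1:158958176-158958275, minus strand): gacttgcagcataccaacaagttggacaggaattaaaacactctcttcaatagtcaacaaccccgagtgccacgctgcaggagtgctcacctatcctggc

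Of 5 motifs searched, 4 are given; all were searched on both strands of windows of 300 bases, 250 before the start and 50 after it, and none of these 4 contains another. GGGCGG, the core of the GC box, was in the windows of *Slc38a5*, *Sphkap* and *Higd1a*, and in 35.7% of 32851 promoters of that length. TAATTA, a homeodomain core, was in that of *Tmem27* and in 5.29% of all, and TATAAA was in that of *Cryba2* only, where it spans the start, and in 13.6% of all. TGTTTA, a forkhead core, was in none of the 7 and in 13.4% of all. None of the 4 was held in common by all 7 windows, and no binding was measured here.

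*Ttr* was far higher in alpha cells than in the other classes of every library. Its level in alpha cells was 37746 CPM (37499 to 37995) in WT, 6765 CPM (6681 to 6850) at 1 week and 15757 CPM (15656 to 15858) at 5 weeks. In beta cells it was at 922, 94.4 and 592 CPM, and in delta cells at 612, 65.1 and 1409 CPM, in the same order of libraries. Alpha cells thus held 40.9-fold more than beta cells in WT, 71.7-fold more at 1 week and 26.6-fold more at 5 weeks, and in each class the 1-week library had the lowest level.

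*Pappa2* and *Cryba2* had the same order of libraries in alpha cells. *Pappa2* was at 234 CPM (215 to 255) in WT, 44.2 CPM (37.6 to 51.5) at 1 week and 204 CPM (193 to 216) at 5 weeks in alpha cells, and at 6.92, 1.27 and 3.65 CPM in beta cells. The *Cryba2* level was 417 CPM (391 to 444) in alpha cells of WT, 43.1 CPM (36.6 to 50.4) in those of 1 week and 375 CPM (359 to 390) in those of 5 weeks, beside 24.3, 6.93 and 15.2 CPM in beta cells. For both genes the WT and 5-week levels lay close together and the 1-week level apart from them. In delta cells *Pappa2* was at 47.6, 4.65 and 30.5 CPM, the middle value from 3 UMIs, and *Cryba2* at 81.6, 45.0 and 111 CPM, so that at 1 week the *Cryba2* levels of alpha and delta cells differed by a log2 ratio of only -0.06 (-0.64 to 0.56).

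*Higd1a* was nearly absent from beta and delta cells. Alpha cells held 364 CPM (340 to 390) in WT, 157 CPM (145 to 171) at 1 week and 299 CPM (285 to 313) at 5 weeks, and beta cells 3.93, 0.200 and 1.86 CPM, from 63, 3 and 52 UMIs. The alpha over beta ratio was 92.8-fold in WT and 161-fold at 5 weeks, and at 1 week its log2 was 9.62 (8.06 to 11.90). In delta cells *Higd1a* had 0 UMIs in WT and at 1 week, which allows up to 6.80 and 4.65 CPM, and 53 UMIs or 23.7 CPM (17.8 to 31.0) at 5 weeks, at least 3.49-fold higher than in WT. The 5-week delta cells include 73 that were also in the alpha class, against 0 in WT, and their part in these 53 UMIs was not tested.

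The pair of amino acid carriers differed in how far beta cells took part. Alpha cells held *Slc38a5* at 49.6 CPM (41.0 to 59.5) in WT, at 12.9 CPM (9.47 to 17.1) after 1 week and at 35.0 CPM (30.4 to 40.1) after 5 weeks, but in beta cells it had only 13, 0 and 39 UMIs, 0.810 CPM in WT beta cells against 1.39 CPM in those of 5 weeks. They held *Slc7a2* at 288 CPM (267 to 311) in WT, at 149 CPM (137 to 162) after 1 week and at 202 CPM (190 to 213) after 5 weeks, and beta cells held it at 47.4, 55.1 and 27.2 CPM. Beta cells thus had *Slc7a2* UMIs in every library, though at 5 weeks not above the level of the endothelial cells and macrophages described below. The alpha over beta log2 ratio of *Slc7a2* was 2.60 (2.45 to 2.76) in WT, 1.44 (1.28 to 1.59) after 1 week and 2.89 (2.76 to 3.02) after 5 weeks. For *Slc38a5* it was 5.94 (5.11 to 6.89) in WT and 4.65 (4.15 to 5.18) at 5 weeks, and alpha cells were at least 64.5-fold higher at 1 week. In delta cells *Slc7a2* was at 36.3, 9.30 and 27.3 CPM and *Slc38a5* at 13.6, 6.20 and 12.1 CPM.

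*Gc* and *Tmem27* went against the label of alpha-cell genes, since delta cells held as much or nearly as much of them. *Gc* was at 69.6, 65.0 and 60.3 CPM in alpha cells and at 79.4, 79.1 and 78.8 CPM in delta cells of WT, 1 week and 5 weeks. The alpha over delta log2 ratio was -0.19 (-0.72 to 0.38) in WT, -0.28 (-0.72 to 0.18) at 1 week and -0.39, with an upper bound of -0.12, at 5 weeks. *Gc* thus marked alpha and delta cells against beta cells, where it was at 2.81, 5.60 and 6.72 CPM. *Tmem27* was at 555, 534 and 496 CPM in alpha cells, 122, 106 and 32.6 CPM in beta cells and 444, 719 and 299 CPM in delta cells. Its alpha over delta log2 ratio was 0.32 (0.10 to 0.55) in WT and 0.73 (0.61 to 0.85) at 5 weeks but -0.43 (-0.58 to -0.28) at 1 week, where the 38 delta cells held more than the alpha cells.

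*Sphkap* was hardly enriched in alpha cells. Its alpha cell level was 129 CPM (115 to 144) in WT, 104 CPM (94.0 to 115) after 1 week and 146 CPM (137 to 156) after 5 weeks, and it was at 79.7, 87.8 and 51.6 CPM in beta cells and at 65.8, 66.7 and 82.4 CPM in delta cells. The alpha over beta log2 ratio was 0.69 (0.51 to 0.88) in WT, 0.25 (0.08 to 0.41) at 1 week and at 5 weeks alpha cells held 2.83-fold more. With the hormone transcripts *Ins1*, *Ins2*, *Gcg*, *Sst*, *Ppy*, *Pyy* and *Iapp* left out of the total, the WT and 1-week ratios were -0.18 and -0.12, so the direction for *Sphkap* depended on whether hormones were counted. No other member had its alpha over beta direction turned by this change in any library.

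**Figure D1:**
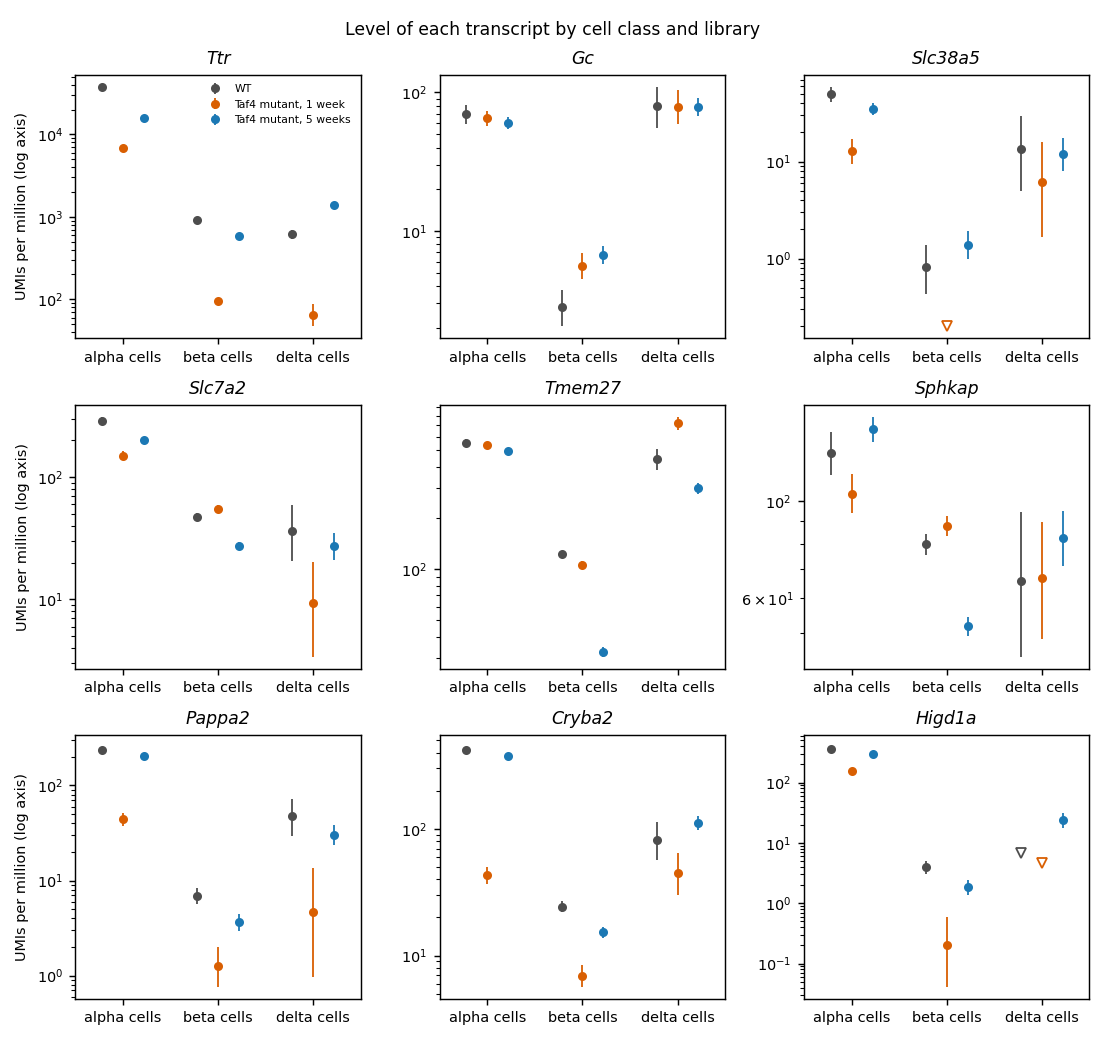
Level of each of the 9 transcripts in CPM (log axis, scale set for each panel) in alpha, beta and delta cells of the WT library (grey), the 1-week mutant library (orange) and the 5-week mutant library (blue); points are levels of 1 library each, bars are 95% exact Poisson intervals and open triangles are the upper limits of a count of 0. *Ttr*, *Pappa2*, *Cryba2* and *Higd1a* were highest in alpha cells in WT and lowest at 1 week among alpha cells, while *Gc* was at 60.3 to 79.4 CPM in both alpha and delta cells of every library.

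Counted by fold, 8 of the 9 were at least 2-fold higher in alpha than in beta cells of WT, *Sphkap* being the exception, against 20.6% of 6834 genes with at least 100 UMIs in both classes together. At 1 week 7 of the 8 that passed this filter were, or 8 of 9 with *Slc38a5* included, against 8.16% of 8811 genes. At 5 weeks all 9 were, against 20.1% of 8965 genes. The median alpha over beta log2 ratio of the 9 was 4.63 in WT and 4.62 at 5 weeks, beside 0.54 and 0.46 over all genes. At 1 week it was 3.09 over the 8 that passed, beside 0.03. Against delta cells 6 of 9 were at least 2-fold higher in WT alpha cells, where 2.96% of 2229 genes were, 4 of the 8 that passed at 1 week, where 3.28% of 4701 were, and 6 of 9 at 5 weeks, where 1.65% of 5951 were. The genes had been grouped as alpha cell genes, so these counts describe the choice and are no independent support for it.

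The levels of the 1-week library were set against those of WT, and sex, depth and class limits also differ between these libraries. The study reports beta cells that become alpha-like after inactivation, and the origin of the cells in the alpha class was not tested. In alpha cells none of the 9 was at least 2-fold higher than in WT, against 32.3% of 5222 genes, and 5 were at least 2-fold lower, against 4.86%. The 5 were *Cryba2* at a log2 ratio of -3.28 (-3.53 to -3.03), *Ttr* at -2.48 (-2.50 to -2.46), *Pappa2* at -2.41 (-2.67 to -2.15), *Slc38a5* at -1.94 (-2.46 to -1.44) and *Higd1a* at -1.21 (-1.37 to -1.06). *Slc7a2* lay just inside 2-fold at -0.95 (-1.12 to -0.79). The others were *Sphkap* at -0.31 (-0.53 to -0.08), *Gc* at -0.10 (-0.39 to 0.20) and *Tmem27* at -0.06 (-0.16 to 0.04), the last 2 with intervals that include 0. The ratios were thus graded, and *Gc* and *Tmem27*, the pair as high or nearly as high in delta cells, were nearest to the WT level. For *Gc* this was not kept with each cell thinned to 500 UMIs. It was then at -2.36, but only 1 of 172 1-week cells had a *Gc* UMI, too few to place it. With hormones left out of the total *Slc7a2* was at -1.29 and thus also past 2-fold.

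The middle of all genes was itself displaced in this comparison: the median log2 ratio over all genes was 0.63 with hormones in the total and 0.29 without them, beside -1.21 and -1.55 over the 9 members. Without *Ttr* the other 8 summed to 2107 CPM in WT, 1109 CPM at 1 week and 1818 CPM at 5 weeks. Relative to the median gene, which does not depend on the choice of hormones, all 9 were lower at 1 week, from -0.69 for *Tmem27* to -3.90 for *Cryba2*. This distance did depend on depth. With each cell thinned to 500 UMIs the median over all genes was 0.08, and *Tmem27* at 0.05 and *Sphkap* at 0.08 lay at or near it. The lower *Ttr* and *Cryba2* levels were not shared by all transcripts of alpha cells. *Gcg* itself stood at 341020 CPM in WT alpha cells and 242032 CPM in those of 1 week. The alpha cell transcription factor genes *Irx1* and *Irx2* were at 82.3 and 71.3 CPM in WT and at 115 and 109 CPM at 1 week. *Etv1* was at 397 and 187 CPM, and *Nxph1* at 12.7 and 54.9 CPM.

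In alpha cells at 5 weeks the members stood closer to WT. *Ttr*, at a log2 ratio of -1.26 (-1.27 to -1.25), was the only one of 9 at least 2-fold lower, against 1.42% of 5480 genes, and none was at least 2-fold higher, against 3.01%. *Slc7a2* was at -0.51, *Slc38a5* at -0.50 and *Higd1a* at -0.28 (-0.40 to -0.17). The rest lay between -0.21 for *Gc* and 0.18 for *Sphkap*. The median over the 9 was -0.21, beside 0.06 over all genes, and 8 of the 9 were below the median gene. Both mutant libraries were set against the same WT library. Set against the 1-week library instead, the 5-week alpha cells held 8.70-fold more *Cryba2*, 4.62-fold more *Pappa2*, 2.72-fold more *Slc38a5* and 2.33-fold more *Ttr*. These 4 were at least 2-fold higher at 5 weeks than at 1 week, against 5.72% of 6726 genes.

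Beta cells, in which *Taf4* was deleted, held less of most of these RNAs than alpha cells, and the part of free RNA in their levels was not tested apart from the values given below. At 1 week 3 of the 7 members that passed the filter were at least 2-fold lower than in WT, against 2.47% of 9227 genes. These were *Ttr* at -3.29 (-3.37 to -3.21), *Pappa2* at -2.45 (-3.23 to -1.74) and *Cryba2* at -1.81 (-2.14 to -1.49). *Tmem27*, *Sphkap*, *Slc7a2* and *Gc* were at -0.21, 0.14, 0.22 and 1.00, none of them at least 2-fold higher, against 57.6%. Over all genes the median was 1.15 with hormones in the total and 0.31 without. At 5 weeks 2 of 8 that passed were at least 2-fold lower, *Tmem27* at -1.90 (-2.02 to -1.79) and *Higd1a* at -1.08 (-1.64 to -0.53), against 4.18% of 9203 genes. The *Higd1a* value came from 63 and 52 UMIs. It was -0.20 with WT and 5-week cells of 1000 to 3000 UMIs and -3.04 with the 1-week class limits in all libraries. *Gc* was the 1 that was at least 2-fold higher, at 1.26 (0.78 to 1.76) from 45 and 188 UMIs, against 6.37%. With the 1-week class limits in all libraries, which left 32 WT beta cells, *Gc* was at -0.72 instead. *Tmem27* in beta cells was at 122 CPM in WT, 106 CPM at 1 week and 32.6 CPM at 5 weeks, while in alpha cells its 3 levels differed by at most 1.12-fold. Its 5-week beta cell level was not above the 44.7 CPM, from 14 UMIs, of the endothelial cells and macrophages described below. The median of the 8 was -0.74, beside 0.18 over all genes.

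**Figure D2:**
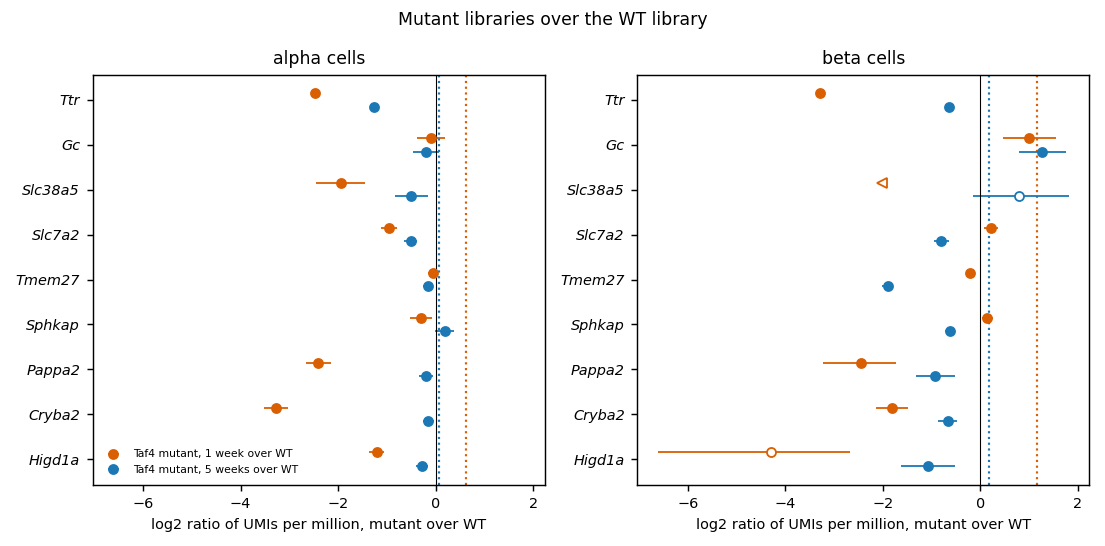
Log2 ratio of the CPM of the mutant libraries over the WT library for the 9 transcripts in alpha cells (left) and beta cells (right), at 1 week (orange) and 5 weeks (blue); bars are 95% exact conditional intervals for counting error, open circles had under 100 UMIs in both libraries together, the open triangle is an upper bound from a count of 0, and dotted lines are the medians over all genes. In alpha cells at 1 week *Cryba2*, *Ttr*, *Pappa2*, *Slc38a5* and *Higd1a* lay below -1, and at 5 weeks only *Ttr* did.

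Single alpha cells show how the *Ttr* level was made up. *Ttr* took a median of 3.06% of the UMIs of a WT alpha cell, 0.324% at 1 week and 1.24% at 5 weeks. The middle 80% of cells ran from 0.963% to 7.08% in WT, from 0.103% to 1.59% at 1 week and from 0.424% to 3.11% at 5 weeks. Only 0.581% of the 1-week cells and 10.5% of the 5-week cells lay above the WT median. The whole distribution thus lay lower in the mutant libraries, and few cells lacked the transcript: *Ttr* was at 0 in 0.216% of WT and 0.332% of 5-week alpha cells and had UMIs in each of the 172 1-week cells.

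The 1-week distribution was wide and uneven. Counted in bins of equal width on a log scale from 0.125% to 2%, the 1-week cells numbered 22, 19, 28, 19, 10, 12, 18 and 11, and with such counts a dip from 19 to 10 or a rise from 12 to 18 is within counting error. At a limit of 0.7%, set after these values were seen, 52 cells lay above and 120 at or below, and 22 lay between 0.5% and 1%, near the limit. The median depth of the 52 was 20531 UMIs and of the 120 was 21698 UMIs. The cells above the limit held *Ttr* at 16272 CPM and the others at 2669 CPM, which is what the limit fixes. The same cells held *Slc38a5* at 22.8 and 8.64 CPM, *Tmem27* at 694 and 464 CPM and *Gc* at 82.9 and 57.3 CPM. *Higd1a* was at 156 and 158 CPM, *Pappa2* at 48.3 and 42.4 CPM and *Cryba2* at 51.0 and 39.6 CPM, so that for these 3 neither side came near the WT levels. *Gcg* was at 269329 and 230268 CPM, and *Ppy*, the pancreatic polypeptide gene, at 3099 and 7790 CPM. The 1-week library pools 2 mice, and cells cannot be assigned to a mouse.

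**Figure D3:**
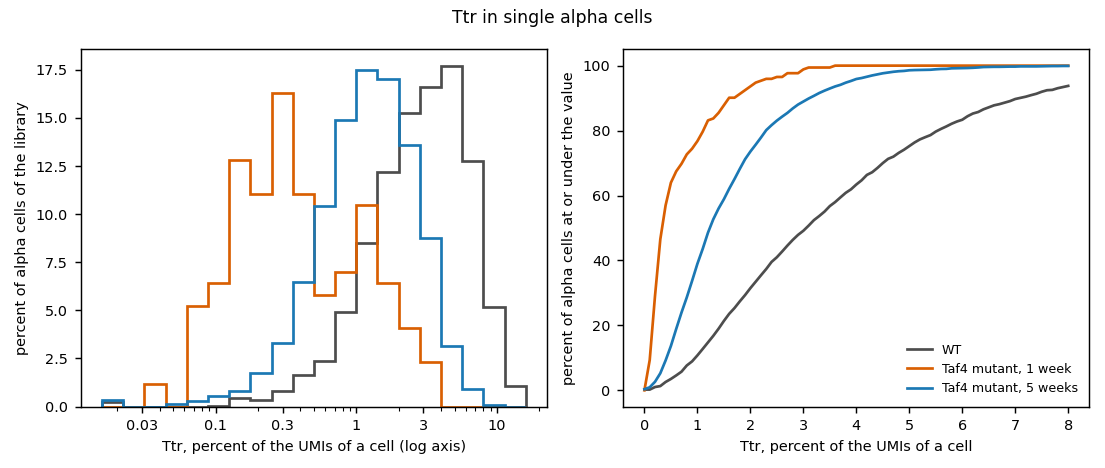
Share of UMIs from *Ttr* in single alpha cells of the WT (grey), 1-week (orange) and 5-week (blue) libraries, as the percent of alpha cells per bin on a log axis (left) and as the percent of alpha cells at or under each value (right). The WT, 5-week and 1-week medians were 3.06%, 1.24% and 0.324%, and the 1-week histogram is uneven, with 28 cells in its fullest bin and 10 in the bin from 0.5% to 0.707%.

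Shares of cells with a UMI depend on depth, so each cell was also thinned to 500 UMIs, which no alpha, beta or delta cell fell short of. In thinned alpha cells *Ttr* had a UMI in 99.6% of WT, 78.5% of 1-week and 96.6% of 5-week cells. *Cryba2* had one in 17.8%, 0.581% (0.0147 to 3.20) and 17.6%, *Higd1a* in 16.9%, 7.56% and 13.9%, and *Pappa2* in 11.1%, 1.16% and 9.33%. *Tmem27* had one in 24.0% of WT, 43 of 172 1-week and 21.8% of 5-week cells. For *Ttr*, *Cryba2*, *Higd1a* and *Pappa2* the shares had the order of the CPM, lowest at 1 week. For *Tmem27* the thinned shares of 1 week, 25% (18.7 to 32.2), and WT, 24.0% (22.4 to 25.6), had overlapping intervals. Its CPM intervals in these libraries overlapped too, so no order of the 1-week and WT libraries is read for it. Without thinning the shares for *Cryba2* were 27.7%, 48.3% and 46.6%, and here the deepest library had the highest share. A thinned alpha cell held on average 1.94 of the 9 transcripts in WT, 1.29 at 1 week and 1.80 at 5 weeks, against 0.484, 0.181 and 0.270 for a beta cell.

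Endothelial cells and macrophages were used as a reference for the level of free RNA in the droplets. They were the cells in none of the 3 classes with at least 3 UMIs summed over the endothelial or the macrophage markers. Cells with mixed hormones could also meet this rule, and how many did was not tested. At 5 weeks 226 such cells, thinned in the same way, had a *Ttr* UMI in 9.29% (5.84 to 13.9), a *Higd1a* UMI in 6.19% (3.43 to 10.2) and a *Cryba2* UMI in 1.33% (0.275 to 3.83). They had no *Pappa2* or *Sphkap* UMI, and 3 cells of 226 would be 1.33%. Beta cells of the same library had a *Ttr* UMI in 19.5% (18.5 to 20.6), above that share. Before thinning *Ttr* was at 0.761 UMIs per cell in the endothelial cells and macrophages and at 2.92 in beta cells. Summed over all UMIs it was at 550 CPM in the former and at 592 CPM in beta cells. These measures differed, and the part of free RNA in beta cell *Ttr* was not tested. *Cryba2* in 1.02% and *Pappa2* in 0.229% of beta cells were not above the shares that the endothelial cells and macrophages allow. Nor were *Tmem27* in 1.58% and *Slc7a2* in 1.53% of beta cells, beside 0.885% (0.107 to 3.16) for each in the endothelial cells and macrophages. Summed over all UMIs, *Tmem27* was at 44.7 CPM in the latter and 32.6 CPM in beta cells, and *Slc7a2* at 28.8 and 27.2 CPM. *Sphkap*, in 2.67% of beta cells, was above the share that the endothelial cells and macrophages allow, at 9.59 CPM in them against 51.6 CPM in beta cells. *Higd1a* does not give a level of free RNA in this way: it is broadly expressed outside islets and was at 137 CPM in these cells against 1.86 CPM in beta cells, where it was found in 0.0704%. Median depths before thinning were 1218 UMIs in the endothelial cells and macrophages and 3868 UMIs in the beta cells. The WT library had 2 such cells and the 1-week library 24, of which 20 reached 500 UMIs, too few for a comparison.

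**Figure D4:**
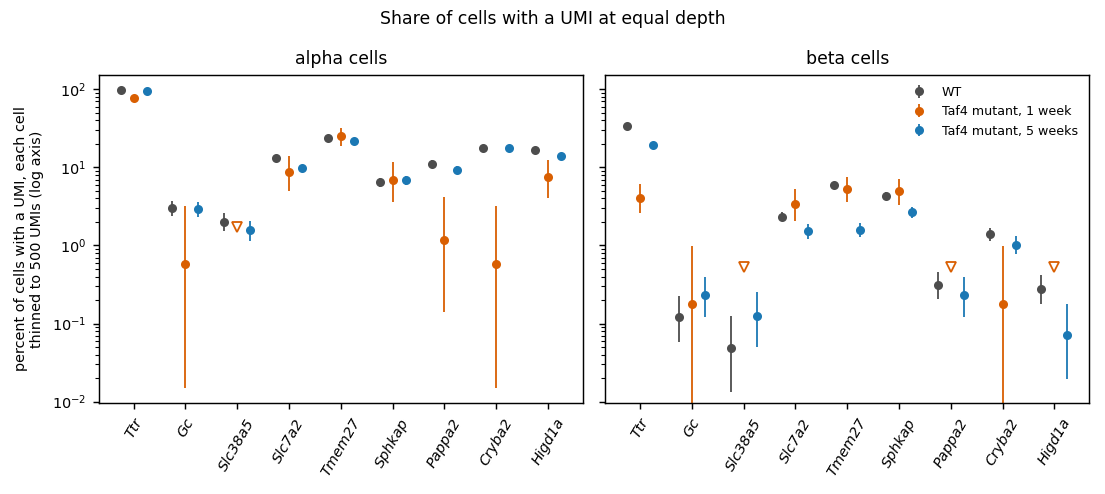
Percent of alpha cells (left) and beta cells (right) with at least 1 UMI of each transcript after every cell was thinned to 500 UMIs (log axis), in the WT (grey), 1-week (orange) and 5-week (blue) libraries; bars are 95% exact Clopper-Pearson intervals and open triangles the limit that 0 cells allow. *Cryba2* was found in 17.8% of WT and 17.6% of 5-week alpha cells but in 0.581% of 1-week alpha cells.

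Alpha cell RNA in beta and delta cells was also measured against *Gcg*. If the *Gcg* UMIs of another class came with alpha cell RNA in the proportions of the alpha cells of that library, a number of UMIs of each member would come with them. *Higd1a* in beta cells came closest, with 1.99 times (1.53 to 2.55) this number in WT, 1.29 times (0.267 to 3.78) at 1 week and 1.84 times (1.37 to 2.41) at 5 weeks. *Ttr* in beta cells was 4.52, 14.2 and 11.1 times this number, *Tmem27* 40.7, 201 and 19.4 times, and *Sphkap* 114, 855 and 104 times. *Cryba2* was 10.8, 164 and 12.0 times and *Pappa2* 5.46, 29.1 and 5.28 times this number. The *Gcg* of each class is bounded by the class limits, under 3% in beta cells and at least 15% in alpha cells (8% at 1 week). These multiples therefore describe the classes, and where the beta cell UMIs of these 5 came from was not tested. At 5 weeks the shares of beta cells with *Cryba2*, *Pappa2* and *Tmem27* were not above those that the endothelial cells and macrophages allow. In delta cells of the 5-week library *Higd1a* was at 1.09 times (0.816 to 1.43) and *Ttr* at 1.23 times (1.19 to 1.27) the number that its *Gcg* predicts. Delta cells at 5 weeks held *Gcg* at 28765 CPM against 3247 CPM in WT, and their higher *Ttr* (1409 against 612 CPM) and *Higd1a* (23.7 CPM against 0) moved with it. Of the 1443 delta cells at 5 weeks, 73 were also in the alpha class, against 0 in WT. A *Ttr* UMI was found in 26.5% of 5-week and 29.6% of WT delta cells. How much the 73 shared cells added to these delta cell levels was not tested. *Gc* in delta cells was 120, 716 and 17.9 times and *Tmem27* 84.1, 794 and 8.28 times the predicted number, in WT, at 1 week and at 5 weeks.

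**Figure D5:**
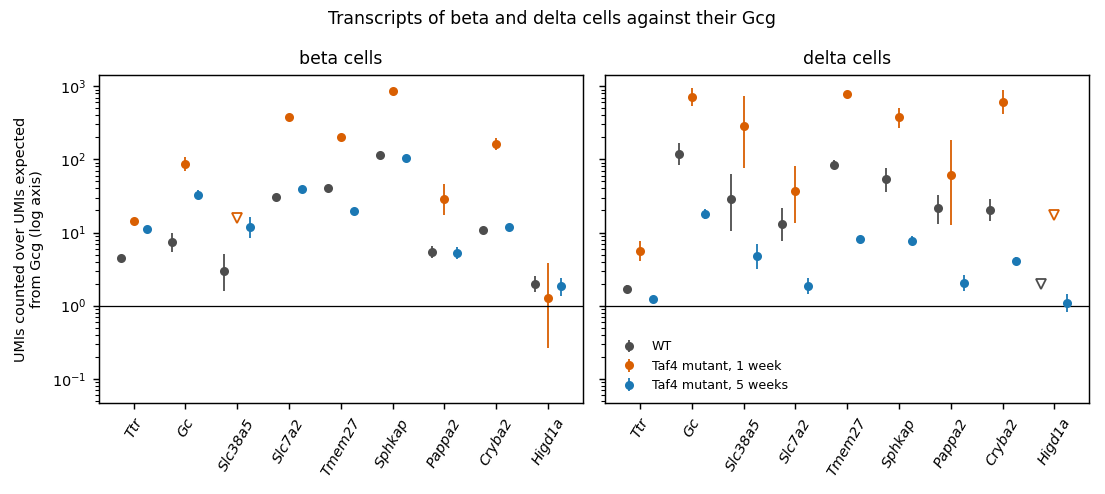
UMIs of each transcript counted in beta cells (left) and delta cells (right) over the number expected if their *Gcg* UMIs came with alpha cell RNA of the same library (log axis), in the WT (grey), 1-week (orange) and 5-week (blue) libraries; bars are 95% exact Poisson intervals of the count, open triangles the limits of a count of 0, and the line marks a ratio of 1. *Higd1a* lay nearest to the line in beta cells, and *Higd1a* and *Ttr* did in 5-week delta cells.

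The 5-week library also held 535 cells with at least 20% *Ins2* and at least 3% *Gcg*, which are in neither the alpha nor the beta class. The authors had removed cells with hormones of more than 1 class from the WT library only, and doublets were not called here. In these cells *Ttr* was at 4679 CPM (4599 to 4760), *Tmem27* at 174 CPM (159 to 191), *Cryba2* at 120 CPM (107 to 133), *Higd1a* at 86.8 CPM (76.1 to 98.5) and *Pappa2* at 74.8 CPM (64.9 to 85.7). Each of these levels lay between that of the beta and that of the alpha cells of the library, as did *Gcg* at 106413 CPM. Whether these are single cells or pairs was not tested.

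Within the alpha cells of a library the members were compared over 3 groups of nearly equal size, ordered by the share of UMIs from the immediate early genes *Jun*, *Junb*, *Fos*, *Fosb*, *Atf3* and *Egr1*, which respond to cell handling and stress. At 5 weeks, from the lowest to the highest group, *Tmem27* was at 634, 440 and 417 CPM, *Slc38a5* at 50.6, 27.2 and 27.7 CPM and *Ttr* at 17539, 15803 and 13847 CPM, while *Higd1a* was at 275, 311 and 311 CPM. *Gcg* was at 431259, 400559 and 350833 CPM in the same groups. In WT *Ttr* was at 41189, 39809 and 32003 CPM and *Higd1a* at 318, 360 and 415 CPM. In WT every cell of the lowest group had a share of 0%, and the middle group also began at 0%. These WT groups are thus not fully ordered by the share, and their median depths were 733, 845 and 734 UMIs. By depth, from the shallowest to the deepest group, *Ttr* in WT was at 28774, 38110 and 42009 CPM and *Slc38a5* at 34.5, 40.9 and 62.9 CPM, while *Pappa2* was at 220, 238 and 239 CPM. The WT alpha cells of every group thus held more *Ttr* than the 1-week alpha cells of any group, where the levels by depth were 6192, 5784 and 7686 CPM.

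Summed markers of other cell types differed between the alpha cells of the libraries. The summed level of 10 acinar markers was 11007 CPM in WT, 7.41 CPM at 1 week and 1655 CPM at 5 weeks, and that of *Ins2* was 26874, 4159 and 30560 CPM. All 10 acinar markers had UMIs in WT and at 5 weeks, and 7 at 1 week. Summed endothelial markers had 30, 30 and 149 UMIs and summed macrophage markers were at 50.5, 16.2 and 49.2 CPM. The part of RNA from other cell types in the 1-week levels of *Ttr*, *Cryba2* and *Pappa2* was not tested.

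Genes related to the members by family or function were counted in the same way. Of 18 amino acid transporter genes, *Slc7a2* and *Slc38a5* included, 13 passed the filter in WT and 5 were at least 2-fold higher in alpha than in beta cells, against 20.6% of all genes, namely *Slc38a5*, *Slc7a2*, *Slc16a10* at 111 and 34.0 CPM, *Slc6a17* at 24.2 and 7.98 CPM and *Slc7a8* at 58.5 and 23.1 CPM. At 1 week against WT, 3 of 13 were at least 2-fold higher in alpha cells, no larger a share than the 32.3% of all genes, *Slc3a2* at a log2 ratio of 2.33 (2.06 to 2.61), *Slc7a1* at 2.23 (1.47 to 3.08) and *Slc7a5* at 2.13 (1.57 to 2.73). *Slc3a2* and *Slc7a5* encode the chains of a carrier of large neutral amino acids, and *Slc7a1* an arginine carrier. The 2 that were at least 2-fold lower, against 4.86% of all genes, were the member *Slc38a5* and *Slc38a4*, at -1.58 (-1.99 to -1.18). At 5 weeks none of 12 was past 2-fold in alpha cells.

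Of 9 plasma carrier genes, the members *Ttr* and *Gc* included, 5 passed the filter in WT, which a high alpha cell level favours, and these 5 were at least 2-fold higher in alpha than in beta cells, against 20.6% of all genes. *Rbp4*, whose protein is bound by transthyretin, was at 1009 CPM in WT, 1848 CPM at 1 week and 1204 CPM at 5 weeks in alpha cells, a log2 ratio of 0.87 (0.81 to 0.94) at 1 week where *Ttr* was at -2.48. Among 14 genes of the insulin-like growth factor axis, 4 passed in WT, and *Igfbp7* was at 254 CPM in alpha and 70.4 CPM in beta cells. *Higd2a*, the relative of *Higd1a*, was at 86.9 and 64.8 CPM, within 2-fold between the classes. Of 8 crystallin genes only *Cryba2* and *Crybg3* passed in WT, and *Crybg3* was at 6.36 CPM in alpha and 7.67 CPM in beta cells. Of 10 genes for protein kinase A anchors and subunits 9 passed in WT, none was at least 2-fold higher in alpha cells, and *Prkar2b* was at least 2-fold lower, at -1.19 (-2.08 to -0.41).

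The genes whose pattern was most like the members were found by Pearson correlation of log2(CPM + 10) over the 9 sums of 3 classes and 3 libraries, across 10984 genes. The points share libraries and depth, and the coefficients are descriptions. *Higd1a* was most like *Igsf21* (r = 0.996) and also like *Mctp2* (0.993). *Pappa2* was most like *Hapln1* (0.982) and *Arhgap6* (0.979), *Cryba2* like *Gm10036* (0.975) and *Guca1a* (0.972), and *Slc38a5* like *Sertm1* (0.986). *Ttr* was most like *Gcg* (0.957), while *Gc* was most like *Gspt2* (0.981), *Slc7a2* like *Lpl* (0.975), *Sphkap* like *Tmsb15b2* (0.967) and *Tmem27* like the ribosomal protein gene *Rps9* (0.985). Between members the highest coefficient was that of *Slc38a5* with *Pappa2*, 0.975, and the lowest that of *Gc* with *Slc7a2*, 0.175. The mean of the 9 was most like *Ctxn2* (0.987), *Ndst4* (0.981) and *Arhgap6* (0.978). *Ctxn2* was at 112 CPM in WT, 46.9 CPM at 1 week and 86.4 CPM at 5 weeks in alpha cells, and at 1.31, 0.800 and 1.82 CPM in beta cells.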

How the data were processed

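The 3 deposited tables hold raw UMI counts per gene and cell barcode. Per the labels and the study's methods, the authors aligned reads to mm10 and counted UMIs with Cell Ranger (3.1), and for WT alone they took out mixed-hormone cells and DoubletFinder calls and kept 12000 cells. All deposited cells were read here, counts were summed over the cells of each class as given above, and CPM, exact intervals and log2 ratios were computed with Python 3.11.15, numpy 2.4.6 and scipy 1.17.1. Ratios over many genes used genes with at least 100 UMIs on both sides together, and a count of 0 was set to 3 counts as a bound. Thinning used seed 0. The intervals were tested on simulated data. With 1 library per group no test was possible.

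Genes named are the 9 members, *Taf4*, hormone genes, *Xist* and Y-linked genes, lists of related genes and markers, and the 3 genes most like each member; some of the genes on these lists, and counts that rest on them, are not reported here. The members and lists were chosen with earlier results of these data known. Promoters came from RefSeq, GRCm38.p6, where *Tmem27* is *Cltrn*; no promoter was used for *Ttr* and *Slc7a2*. Alternatives were other class limits, other depth limits, hormones left out of totals, thinning, cell means, subtraction of RNA carried with *Gcg* and no UMI filter. Figures were drawn with matplotlib 3.10.9.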

Additional observations from a re-analysis of the deposited data

Results flagged for a closer look

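*Slc7a2* and *Sphkap* lay on opposite sides of WT in alpha and beta cells at 1 week. The log2 ratio of *Slc7a2*, the gene of the arginine and lysine carrier CAT2, was -0.95 in alpha cells and 0.22 in beta cells, and that of *Sphkap*, the gene of a protein kinase A anchor, was -0.31 in alpha cells and 0.14 in beta cells. With 1 library per group these differences were not tested. With hormones left out of the total the beta cell values were -0.62 and -0.70, on the same side as the alpha cell values.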

How the results depend on the processing

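No paired analysis was possible because each group had 1 library. The median log2 ratio of the members at 1 week over WT in beta cells moved most: from -0.21 it went to -0.095 with the 1-week class limits in all libraries, 0.016 with WT cells of 1000 to 3000 UMIs, -1.05 with hormones left out of the total and -1.81 without the UMI filter. In alpha cells it went from -1.21 to -1.55 with hormones left out. The count of members higher in alpha than in beta cells at 1 week went from 7 to 1 when cells were thinned to 500 UMIs, since only 1 member then kept 100 UMIs. *Gc* at 5 weeks over WT in beta cells reversed from 1.26 to -0.72 with the 1-week limits in all libraries, which left 32 WT beta cells; the cause was not tested. Under those limits WT kept no alpha cell, so alpha cells have no value there. Over the 10 alternatives with a value, among alpha cell ratios to WT that passed 2-fold, *Ttr* stayed between -2.82 and -2.37 at 1 week and between -1.38 and -1.13 at 5 weeks, *Cryba2* between -5.15 and -3.26, *Pappa2* between -3.36 and -2.26 and *Higd1a* between -1.55 and -1.18, while *Slc38a5* ran from -2.28 to -0.31, the last after thinning, with 0 UMIs left at 1 week. At 1 week the 38 delta cells limit what can be said of that class by their number.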
